A study of Rattus norvegicus with 32 samples.

Results

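The Asb, Klhl and Fbxo genes encode substrate adaptors of the cullin-RING ubiquitin ligases, and 63 of them were followed in the red tibialis anterior muscle of Zucker rats. The genes were taken by symbol, as features of the array that carry a single gene symbol beginning with Asb, Klhl or Fbxo followed by a digit, leaving out Fbxo32, and 1 feature was kept per gene, that with the highest mean over all 32 arrays. This gave 12 Asb, 28 Klhl and 23 Fbxo genes among 14557 genes with a feature of their own. Of these 63 genes, 54 were bright enough to be tested, namely 10 Asb, 26 Klhl and 18 Fbxo genes. The other 9 (Asb9, Asb17, Klhl10, Klhl14, Fbxo5, Fbxo16, Fbxo39, Fbxo43 and Fbxo48) lay in the dimmest 25% of all genes, with group means between 2.27 and 3.36 on the log2 scale.

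RNA was measured on 1 Affymetrix array per rat in 4 groups of 8 male rats, all 18 weeks old after 12 weeks on their diet. Obese Zucker rats received the AIN-93G diet with 10% flaxseed oil, rich in alpha-linolenic acid (the ALA rats), the same diet with 10% safflower oil, rich in linoleic acid (the LA rats), or plain AIN-93G without restriction (the obese controls). Lean Zucker rats received plain AIN-93G without restriction (the lean controls). The ALA and LA rats were pair-fed to the calories of the obese controls, and no lean rat received an oil, so a comparison of an oil group with the lean controls differs in both genotype and diet. All values are log2 intensities, on which a difference of 1 is a doubling, and intensities of different features are not ranked against each other as RNA levels. Each sample was bulk muscle, in which fewer cells or fibres of a type and less RNA per cell cannot be told apart.

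A cullin-RING ligase is a scaffold protein that holds, at one end, a RING protein with the ubiquitin-carrying enzyme and, at the other, an exchangeable adaptor that picks the protein to be marked. Asb proteins join the cullin 5 scaffold through a SOCS box and elongins and bind their targets with ankyrin repeats, Klhl proteins join cullin 3 through a BTB domain and bind with kelch repeats, and Fbxo proteins join cullin 1 through an F-box and Skp1. In striated muscle several of these adaptors are known for the turnover or the protection of sarcomere proteins, and mutations in some of them cause human myopathies.

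Promoter windows are shown for 4 genes on which the results turn: Asb4 and Klhl23, which separated obese controls from lean controls, and Asb5 and Klhl40, which were among those that varied most between rats of a group. Each window runs from 250 bases before to 50 bases after the RefSeq gene start on rat build GRCr8, 5′ to 3′ along the gene, and the start used in muscle may differ. Capitals mark matches, on either strand, to 4 motifs: CAGCTG, the E-box bound by myogenic factors, the MEF2 motif (CTA, any 4 bases, TAG), the STAT motif TTCNNNGAA, and TATAAA, the TATA box. Positions are counted from 0 at the gene start. The windows are Asb4 at chr4:34473277-34473576 on the plus strand, Klhl23 at chr3:74988528-74988827 on the plus strand, Asb5 at chr16:44010388-44010687 on the minus strand and Klhl40 at chr8:130318543-130318842 on the plus strand.
Asb4: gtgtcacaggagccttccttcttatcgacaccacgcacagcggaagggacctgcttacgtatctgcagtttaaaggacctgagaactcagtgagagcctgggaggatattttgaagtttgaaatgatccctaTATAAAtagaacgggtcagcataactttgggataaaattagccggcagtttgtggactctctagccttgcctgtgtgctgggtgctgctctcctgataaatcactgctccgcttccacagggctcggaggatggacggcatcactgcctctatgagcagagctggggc
Klhl23: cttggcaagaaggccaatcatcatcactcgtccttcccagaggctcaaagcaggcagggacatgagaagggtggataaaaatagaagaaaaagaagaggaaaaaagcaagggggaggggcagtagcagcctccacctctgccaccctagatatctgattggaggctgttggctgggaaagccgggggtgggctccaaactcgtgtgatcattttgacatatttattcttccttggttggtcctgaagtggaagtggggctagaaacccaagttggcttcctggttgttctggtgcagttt
Asb5: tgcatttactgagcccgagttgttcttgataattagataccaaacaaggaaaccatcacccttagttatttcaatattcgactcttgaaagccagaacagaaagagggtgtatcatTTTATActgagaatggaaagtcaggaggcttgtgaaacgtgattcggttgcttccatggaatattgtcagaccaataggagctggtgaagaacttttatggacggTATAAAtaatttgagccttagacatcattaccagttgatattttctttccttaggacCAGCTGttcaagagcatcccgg
Klhl40: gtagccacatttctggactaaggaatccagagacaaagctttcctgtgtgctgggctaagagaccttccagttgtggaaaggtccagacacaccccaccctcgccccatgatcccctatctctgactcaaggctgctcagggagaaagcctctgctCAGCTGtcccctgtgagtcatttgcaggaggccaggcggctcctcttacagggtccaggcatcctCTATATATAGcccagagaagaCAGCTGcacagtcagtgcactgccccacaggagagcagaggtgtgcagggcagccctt
The Asb4 window held 1 TATAAA match, starting at position -118 from the gene start, and the Klhl23 window held none of the 4 motifs. The Asb5 window held TATAAA matches at -134 and -29 and a CAGCTG match at 28. The Klhl40 window held CAGCTG at -94 and -8 and the MEF2 motif at -29, and no marked matches overlapped in these windows. Among the 56 adaptor genes with a window in RefSeq, CAGCTG was found in 17 (30.4%), against 15.1% of all 33469 promoters in the table. The MEF2 motif was found in 3 of the 56 (Asb16, Klhl40 and Klhl41, 5.36%), against 3.84% of all promoters, TATAAA in 4 (7.14%), against 14.2%, and TTCNNNGAA in 1 (1.79%), against 8.87%. The adaptors were counted with 1 window each. The windows of all promoters were not reduced to 1 per gene or limited to genes measured here, so these shares come from unlike sets. A match is a match of letters and not a binding site.

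The arrays carried the markers of mixed skeletal muscle, with a mean over 4 of 10 listed fast-fibre markers of 11.76 to 12.23 in every rat. Several rats stood apart from their groups. The mean of 6 of 9 listed denervation and regeneration markers was 7.24 and 7.42 in obese controls 4 and 7, where the remaining 6 obese controls gave 5.47 to 5.82, and was 7.26 in lean control 2. For 8 of 10 listed macrophage markers the mean was likewise high in obese controls 4 and 7, at 6.20 and 6.48, where the remaining 6 of that group gave 5.36 to 5.73. The mean of 5 of 7 listed slow-fibre markers was 10.38 and 10.95 in LA rats 7 and 8, against 7.18 to 9.28 in the other LA rats. The mean of 3 of 5 listed hepatocyte markers was 9.16 in obese control 5, where the other obese controls gave 3.74 to 4.57. Obese controls 4 and 7, LA rats 7 and 8 and lean control 2 are called the 5 outlying rats, and where the printed difference of an adaptor moved by over 1.5 times without them or without obese controls 4 and 7, both values are given. Obese control 5 is not among these 5 and was kept in those fits.

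Between obese and lean controls on the same diet, 4 of the 54 adaptors differed: Asb4 and Fbxo21 were higher in obese controls, and Klhl23 and Klhl31 were lower. Over all 10917 genes tested, 1.76% were called at a Benjamini-Hochberg adjusted p below 0.05 in limma's moderated test. The share of the adaptors, 4 of 54, lay above that background, and it rests on 4 genes, of which Klhl31 and Fbxo21 lost their call under alternatives given with them. Of those 192 called genes 24.5% were higher in obese controls, and 35.6% of 191 were higher after a second quantile normalisation. The slow-fibre markers moved with this contrast: all 5 measured were called lower, and their mean was 7.21 to 8.75 in obese controls against 9.78 to 10.37 in lean controls. Of the listed markers of other cells, 6 of 7 fibroblast markers were lower (2 called), 4 of 6 endothelial markers were lower (2 called) and all 8 macrophage markers were higher (1 called). Their means in obese controls were 7.01 to 7.44, 6.33 to 7.08 and 5.36 to 6.48 for fibroblast, endothelial and macrophage markers, against 7.33 to 7.98, 6.78 to 7.12 and 5.09 to 5.51 in lean controls. The part of fibre type or of these cells in the differences of the adaptors was not tested.

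Asb4, an ankyrin-repeat adaptor that in mice was reported to bind insulin receptor substrate 4, was the most separated of the adaptors. Its lowest, median and highest log2 intensities were 6.28, 6.59 and 7.24 in obese controls, against 5.32, 5.57 and 5.73 in lean controls. Every obese control lay above every lean control, a separation that 0.65% of all genes tested showed in either direction, and the highest obese values belonged to obese controls 4 and 7. The mean was 6.67 ± 0.34 in obese controls and 5.55 ± 0.14 in lean controls (SD, n = 8 each). The difference was 1.12 on the log2 scale, or 2.18-fold higher, with a 95% interval of 0.85 to 1.39 (limma, adjusted p = 3.98e-06). Without obese controls 4 and 7 it was 0.96 (limma, adjusted p = 4.17e-05).

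Klhl23, a BTB-kelch adaptor, showed the opposite pattern. Its lowest, median and highest values were 6.97, 7.27 and 7.58 in obese controls, against 7.78, 7.86 and 8.19 in lean controls. Every obese control lay below every lean control. The mean was 7.30 ± 0.20 in obese controls and 7.92 ± 0.15 in lean controls (SD, n = 8 each), and the difference of -0.62 was 1.53-fold lower with a 95% interval of -0.83 to -0.41 (limma, adjusted p = 0.000563). The difference was -0.56 without obese controls 4 and 7.

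Klhl31, whose loss in mice causes a myopathy with disordered sarcomeres, was lower by a smaller step. It measured 9.79, 10.11 and 10.26 at the lowest, median and highest in obese controls, against 10.16, 10.40 and 10.58 in lean controls. The groups overlapped through a single lean control at 10.16. The difference was -0.30, or 1.23-fold lower, with a 95% interval of -0.45 to -0.16 (limma, adjusted p = 0.0176). Without obese controls 4 and 7 it was -0.23 and no longer passed (limma, adjusted p = 0.105, against 0.00867 to 0.0473 over the other alternatives run).

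Fbxo21, the F-box protein described in mouse muscle as the FoxO-regulated atrophy gene SMART, was higher in obese controls. It measured 6.83, 7.06 and 7.54 at the lowest, median and highest in obese controls, against 6.18, 6.79 and 6.89 in lean controls. The groups overlapped between 6.83 and 6.89, and lean control 7 at 6.18 stood below the rest of its group. The difference was 0.38, or 1.30-fold higher, with a 95% interval of 0.18 to 0.57 (limma, adjusted p = 0.0284). The call was lost without lean control 7 (limma, log2 difference 0.30, adjusted p = 0.0626), lean control 8 (0.0663), obese control 2 (0.0558) or obese control 6 (0.0697), and was kept without obese controls 4 and 7 at a log2 difference of 0.43. Over all alternatives the adjusted p ran from 0.00399 to 0.0790.

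**Figure D1:**
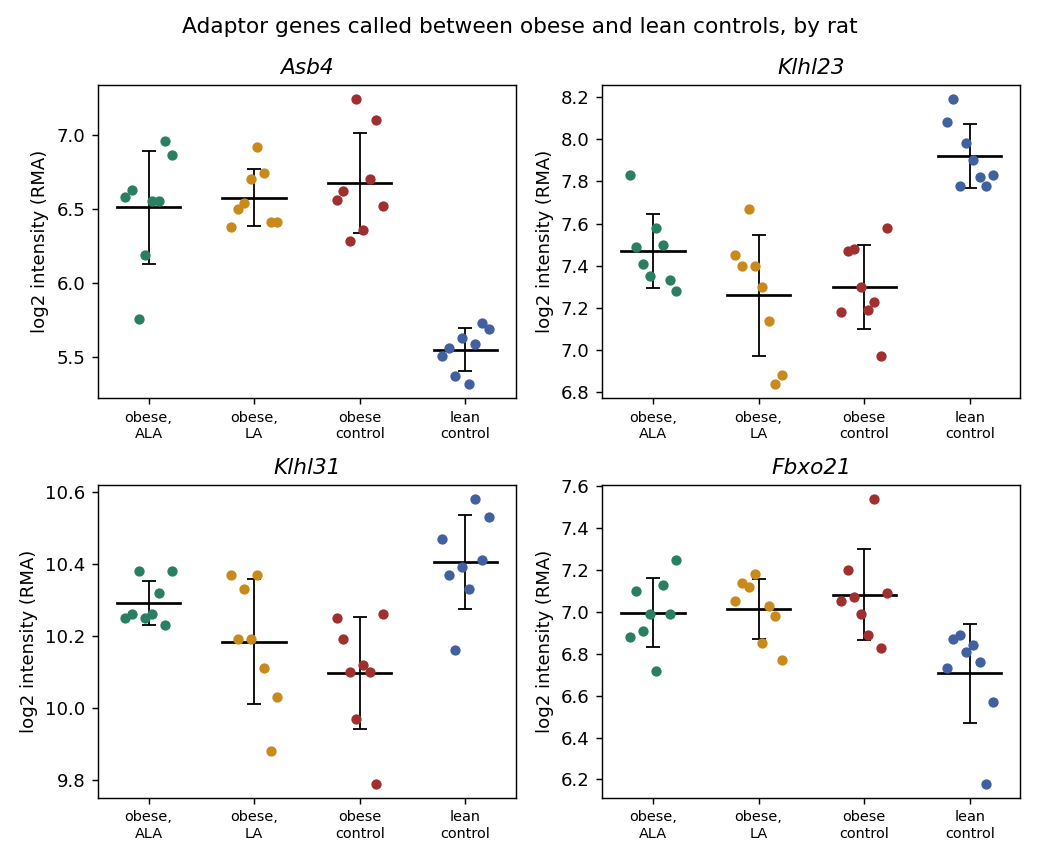
Log2 RMA intensity (vertical axis, a separate scale per panel) of Asb4, Klhl23, Klhl31 and Fbxo21 in each rat of the ALA, LA, obese control and lean control groups. Points are rats, the line is the group mean and the bar 1 SD (n = 8); for Asb4 all 3 obese groups lie above the lean controls, whose highest value is 5.73.

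Taken by family, the adaptors did not move as a block between obese and lean controls. Of the 10 Asb genes 5 were higher and 5 lower, with a median log2 difference of 0.016. Of the 18 Fbxo genes 9 were higher and 9 lower, with a median of 0.015. Both of these medians were just below 0 when each array was centred on its median (-0.0023 for Asb, -0.0031 for Fbxo). The median over all genes tested moved with them, from 0.0019 to -0.017. Of the 26 Klhl genes 11 were higher and 15 lower, with a median of -0.067, against 0.0019 over all genes tested.

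At an unadjusted p below 0.05, 14 of the 54 adaptors (25.9%) differed between obese and lean controls, against 14.8% of all genes tested. The Klhl genes among them all lay on the lower side: Klhl23, Klhl31, Klhl25, Klhl21, Klhl42, Klhl20, Klhl9 and Klhl7, 8 of 26, where 9.03% of all genes were lower at that threshold. Without obese controls 4 and 7, 4 Klhl genes were lower at that threshold. In sign, 7 of the 26 were then higher and 19 lower, and the median was still -0.067. The share of all genes at that threshold was not computed without those rats, so whether these 4 exceed it is not known. Among the Asb genes, Asb4 was higher and Asb1 and Asb10 were lower at that threshold, and among the Fbxo genes Fbxo21, Fbxo10 and Fbxo31 were higher, where 5.77% of all genes were higher at that threshold. Of these 14 genes, only Asb4, Klhl23, Klhl31 and Fbxo21 passed after adjustment.

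Klhl25, an adaptor known for marking ATP-citrate lyase and the translation repressor 4E-BP1, ranked next by p. It measured 3.39, 3.54 and 3.97 in obese controls at the lowest, median and highest, against 3.76, 3.89 and 4.17 in lean controls, a dim feature whose groups overlapped. The difference of -0.30 did not pass (limma, adjusted p = 0.108). The 95% interval of the difference lay within 0.5 log2 units of 0, which is 1.41-fold, for 44 of the 54 adaptors, so differences beyond that size lie outside the intervals of those 44. The other 10 were Asb4, Asb5, Asb10, Klhl21, Klhl23, Klhl25, Klhl34, Klhl40, Fbxo21 and Fbxo31.

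**Figure D2:**
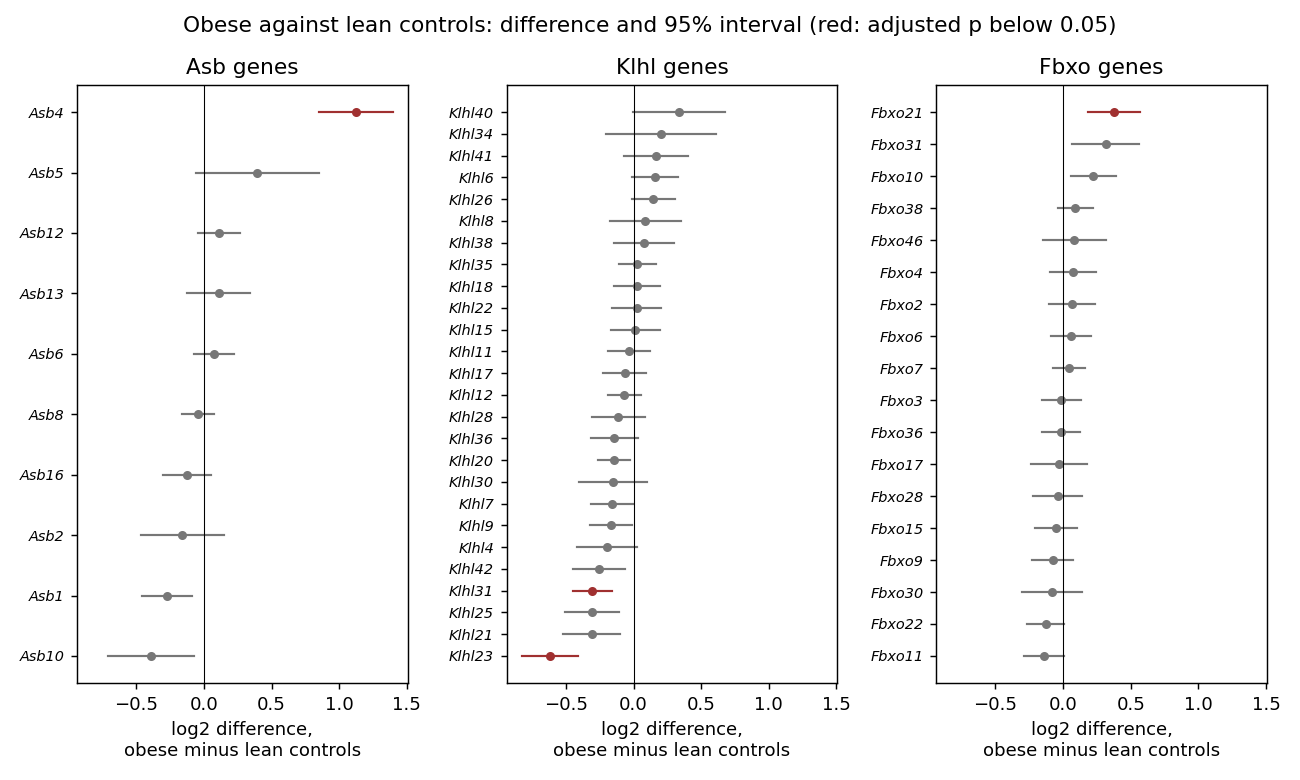
Log2 difference of obese controls minus lean controls for the 54 tested adaptors, in a panel per family, with 95% intervals (limma, n = 8 rats per group). Red marks the 4 genes with an adjusted p below 0.05; the difference of Asb4, at 1.12, is the largest in size and most of the others lie within 0.5 of 0.

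Of 23 adaptors listed for their role or abundance in skeletal muscle, 17 were measured, and the other 6 (Asb11, Asb14, Asb15, Asb18, Klhl33 and Fbxo40) were not analysed here. All 4 called genes were in this list, which was drawn up with earlier results of these data known. Their place in it is therefore not a result. For several of the rest, which did not pass, the values of obese controls 4 and 7 stood apart from the other obese controls. Asb5, an ankyrin-repeat adaptor described in satellite cells, measured 7.89, 8.13 and 9.78 at the lowest, median and highest in obese controls, against 7.76, 8.07 and 8.38 in lean controls. Obese controls 4 and 7 held the high values, 9.36 and 9.78, and the other obese controls reached at most 8.38. Its log2 difference was 0.39 over all rats (limma, adjusted p = 0.411) and 0.027 without obese controls 4 and 7.

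Klhl40, which stabilises the thin-filament proteins nebulin and leiomodin 3 and is mutated in human nemaline myopathy, followed the same rats. It measured 7.59, 7.94 and 9.17 in obese controls at the lowest, median and highest, against 7.64, 7.79 and 8.00 in lean controls. Obese controls 4 and 7 were at 8.75 and 9.17, above every lean control. The log2 difference was 0.34 over all rats (limma, adjusted p = 0.347) and 0.062 without those 2 rats. Klhl41, its close relative and also a nemaline myopathy gene, was at 11.28 and 11.12 in obese controls 4 and 7, against group medians of 10.36 in obese controls and 10.39 in lean controls. Its log2 difference of 0.17 became -0.045 without them, and neither passed the test.

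Other adaptors were low in the same 2 rats. Asb10, an ankyrin-repeat adaptor associated with human glaucoma, measured 5.56, 6.81 and 7.17 in obese controls at the lowest, median and highest, against 6.51, 7.03 and 7.20 in lean controls. The values of 5.78 and 5.56 in obese controls 4 and 7 lay below every lean control, and lean control 2, the rat with the high denervation and regeneration markers, was the lowest of its group at 6.51. The difference of -0.39 (limma, adjusted p = 0.212) was -0.088 without obese controls 4 and 7. Asb2, which marks filamins for destruction and lowers muscle mass in mice, measured 9.0, 9.56 and 10.24 in obese controls and 9.50, 9.66 and 10.26 in lean controls at the lowest, median and highest. Its difference of -0.16 was 0.0055 without those rats.

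Fbxo31, an F-box protein known for marking cyclin D1, was high where Asb10 was low. It measured 9.31, 9.47 and 10.25 in obese controls at the lowest, median and highest, against 9.14, 9.30 and 9.54 in lean controls, with 10.11 and 10.25 in obese controls 4 and 7. The difference of 0.31 (limma, adjusted p = 0.198) was 0.13 without them. LA rat 8, whose denervation and regeneration markers averaged 6.39 against 5.53 to 6.28 in the other LA rats, held the highest LA values of Asb5 (9.85), Klhl40 (8.99) and Klhl34 (7.65) and the lowest of Asb10 (6.39) and Klhl21 (7.32), but was not high in Fbxo31 (8.99). Lean control 2 was the highest lean rat for Asb5, at 8.38.

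**Figure D3:**
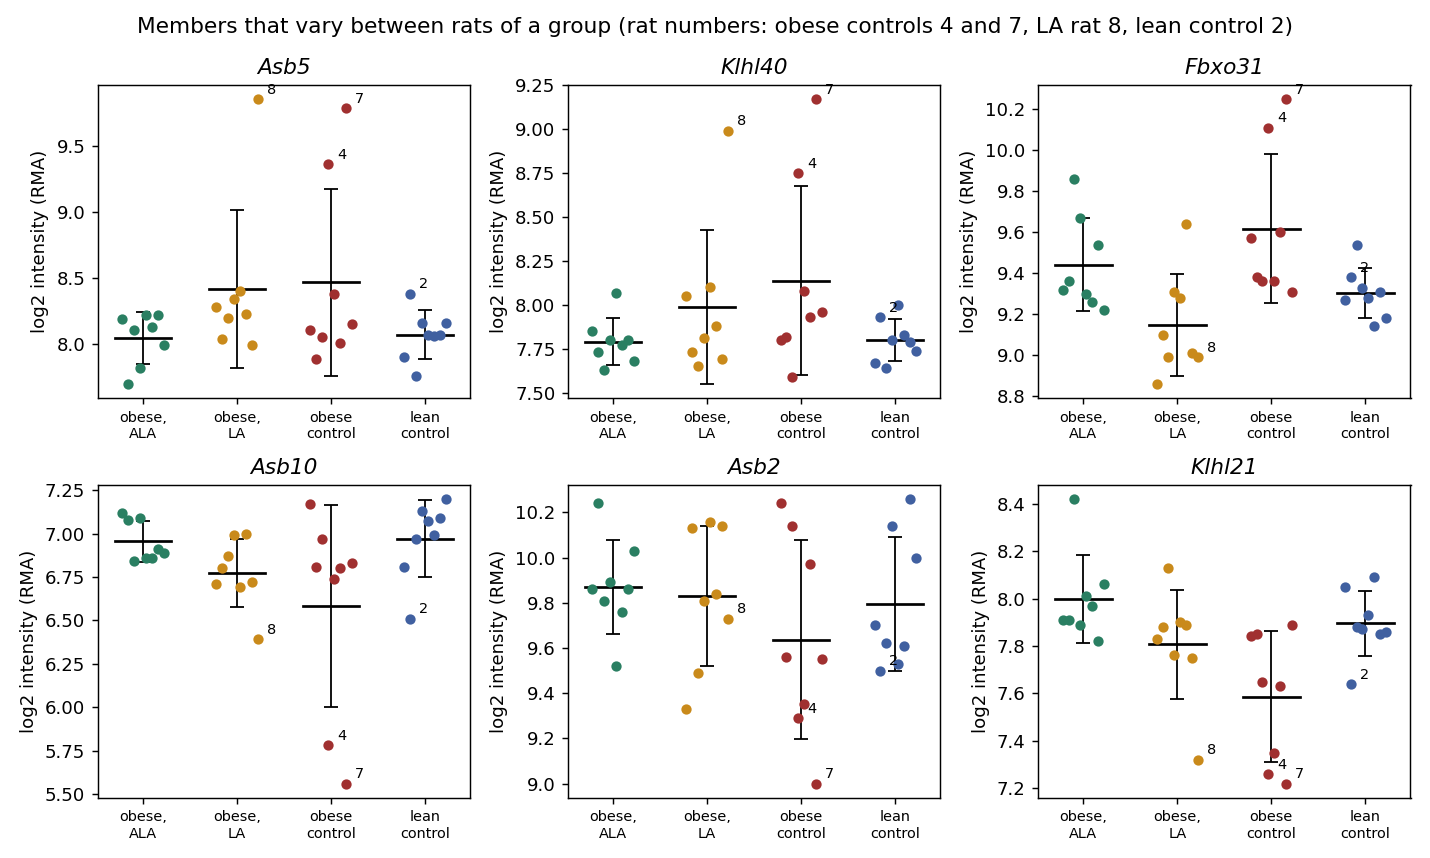
Log2 RMA intensity of Asb5, Klhl40, Fbxo31, Asb10, Asb2 and Klhl21 by rat in the ALA, LA, obese control and lean control groups; numbers mark obese controls 4 and 7, LA rat 8 and lean control 2. Obese controls 4 and 7 are the highest of their group for Asb5, Klhl40 and Fbxo31 and the lowest for Asb10, Asb2 and Klhl21.

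The spread between rats of a group differed among the adaptors. The within-group SD, pooled over the 4 groups, was 0.480 for Asb5, larger than that of 97.8% of all genes tested. It was 0.428 for Klhl34, 0.358 for Klhl40, 0.331 for Asb10 and 0.323 for Asb2, each larger than in at least 93% of genes. At the other end, Asb8 had a pooled SD of 0.102, with 2.56% of genes below it. The pooled values mix groups of unlike spread. In ALA rats, LA rats, obese controls and lean controls the SD was 0.19, 0.60, 0.70 and 0.18 for Asb5. In the same order it was 0.13, 0.44, 0.54 and 0.12 for Klhl40, and 0.12, 0.20, 0.58 and 0.22 for Asb10. The family medians of the pooled SD were 0.211 for Asb, 0.179 for Klhl and 0.159 for Fbxo, against 0.176 over all genes tested.

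The remaining members of the muscle list were not called in any comparison. The group means of Asb8 were 9.75 ± 0.06 in ALA rats, 9.74 ± 0.12 in LA rats, 9.66 ± 0.13 in obese controls and 9.70 ± 0.08 in lean controls (SD, n = 8 each). Asb16 averaged 8.91 ± 0.07, 8.84 ± 0.23, 8.87 ± 0.22 and 9.0 ± 0.14 in the ALA rats, LA rats, obese controls and lean controls, and Asb12 averaged 6.31 ± 0.07, 6.43 ± 0.18, 6.31 ± 0.17 and 6.20 ± 0.14 in the same groups. Asb12 in LA rats against lean controls differed by 0.23, with a 95% interval of 0.079 to 0.39 (limma, adjusted p = 0.121), and passed when the replicate number was a block. Klhl38 averaged 8.73 ± 0.21 in ALA rats, 8.53 ± 0.19 in LA rats, 8.56 ± 0.26 in obese controls and 8.48 ± 0.24 in lean controls, and Klhl30 averaged 6.64 ± 0.26, 6.47 ± 0.25, 6.53 ± 0.21 and 6.68 ± 0.30 in those groups. Klhl34 averaged 6.21 ± 0.27 in ALA rats, 6.57 ± 0.71 in LA rats, 6.62 ± 0.31 in obese controls and 6.42 ± 0.24 in lean controls, with the LA rats between 5.55 and 7.65. Its difference of 0.20 between obese and lean controls (limma, adjusted p = 0.670) was 0.091 without obese controls 4 and 7. Fbxo30, the FoxO-regulated muscle ligase adaptor also called MUSA1, averaged 5.43 ± 0.18 in ALA rats, 5.27 ± 0.28 in LA rats, 5.24 ± 0.26 in obese controls and 5.33 ± 0.14 in lean controls. Among the members outside the muscle list, the brightest features were those of Fbxo6, Fbxo3 and Fbxo9 for the Fbxo family, and Klhl9 for the Klhl family, with group means that differed by at most 0.13, 0.083, 0.12 and 0.17.

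Flaxseed oil was compared with the control diet in obese rats. No adaptor was called in ALA rats against obese controls, where 0% of all genes were called by limma. At an unadjusted p below 0.05, 6 of the 54 adaptors differed (11.1%), against 8.41% of all genes. The Klhl genes were higher in 16 and lower in 10 of 26, with a median log2 difference of 0.067, against -0.0055 over all genes. The Fbxo genes were higher in 11 and lower in 7 of 18 (median 0.027), and the Asb genes were split 5 and 5 (median 0.016). Of the listed markers, 7 of 8 macrophage markers were lower in ALA rats, 4 of them at an unadjusted p below 0.05. All 5 slow-fibre, all 7 fibroblast and 5 of 6 endothelial markers were higher, with 0 at that threshold in each list. The part of fibre type or of these cells in the adaptors was not tested.

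Klhl21, known for targeting Aurora B at cell division, had the smallest p. It measured 7.82, 7.94 and 8.42 in ALA rats at the lowest, median and highest, against 7.22, 7.64 and 7.89 in obese controls. The groups overlapped, with ALA rat 3 the highest at 8.42 and obese controls 4 and 7 the lowest at 7.26 and 7.22. The difference was 0.41, or 1.33-fold, with a 95% interval of 0.20 to 0.62 (limma, adjusted p = 0.348), and 0.30 without obese controls 4 and 7. A dimmer feature for Klhl21 gave 0.065, so the features of this gene disagreed in size. In obese against lean controls the dimmer feature gave -0.089, where the brighter gave -0.31. In LA rats against obese controls they disagreed in sign, at -0.035 and 0.22.

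Klhl31 measured 10.23, 10.26 and 10.38 in ALA rats at the lowest, median and highest, against 9.79, 10.11 and 10.26 in obese controls, a difference of 0.19 (limma, adjusted p = 0.528), which was 0.12 without obese controls 4 and 7. Asb10 averaged 6.96 ± 0.12 in ALA rats and 6.58 ± 0.58 in obese controls (SD, n = 8 each). Its difference of 0.37 (limma, adjusted p = 0.537) was 0.071 without obese controls 4 and 7. Asb1 differed by 0.19 and Klhl34 by -0.42 (limma, adjusted p = 0.583 for each). Asb5 and Klhl40, at -0.42 and -0.35 over all rats, were at -0.050 and -0.071 without obese controls 4 and 7. The 95% intervals of 48 of the 54 adaptors, all 18 Fbxo genes among them, lay within 0.5 log2 units of 0, and those that reached beyond belonged to Asb2, Asb5, Asb10, Klhl21, Klhl34 and Klhl40.

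Safflower oil was compared with the control diet in the same way. In LA rats against obese controls no adaptor was called and 0% of all genes were called by limma, while 3 of the 54 adaptors (5.56%), against 6.25% of all genes, had an unadjusted p below 0.05. The median log2 difference was 0.028 for Asb, -0.026 for Klhl and -0.019 for Fbxo, against -0.0022 over all genes. The Klhl median was 0.010 without obese controls 4 and 7. All 5 measured slow-fibre markers were higher in LA rats, with a median log2 difference of 1.35, and 4 had an unadjusted p below 0.05. Likewise all 7 fibroblast markers were higher (7 at that threshold), as were 7 of 8 macrophage markers (2) and 4 of 6 endothelial markers (0). The part of fibre type or of these cells in the adaptors was not tested.

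Fbxo31 had the smallest p in this comparison. It measured 8.86, 9.06 and 9.64 in LA rats at the lowest, median and highest, against 9.31, 9.47 and 10.25 in obese controls. The groups overlapped through LA rat 6 at 9.64 and LA rat 4 at 9.31. The difference was -0.47, or 1.38-fold lower, with a 95% interval of -0.72 to -0.22 (limma, adjusted p = 0.325). Without obese controls 4 and 7 it was -0.28 (limma, adjusted p = 0.713, against 0.189 to 0.621 when single rats were left out). Klhl25 differed by 0.26 (limma, adjusted p = 0.655), Klhl21 by 0.22 (0.795), Klhl12, an adaptor of the coat protein Sec31 in collagen export, by -0.12 (0.798), and Fbxo7, a proteasome-binding F-box protein mutated in human parkinsonism, by -0.11 (0.798). Without obese controls 4 and 7 the difference of Klhl21 was 0.11 and that of Fbxo7 was -0.074. Without the 5 outlying rats Fbxo31 was at -0.23, Klhl25 at 0.14, Klhl21 at 0.20 and Fbxo7 at -0.045. The intervals of 51 adaptors, all 26 Klhl genes among them, lay within 0.5 log2 units of 0, and those of Asb5, Asb10 and Fbxo31 did not. The comparisons of ALA and of LA rats share the 8 obese controls.

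**Figure D4:**
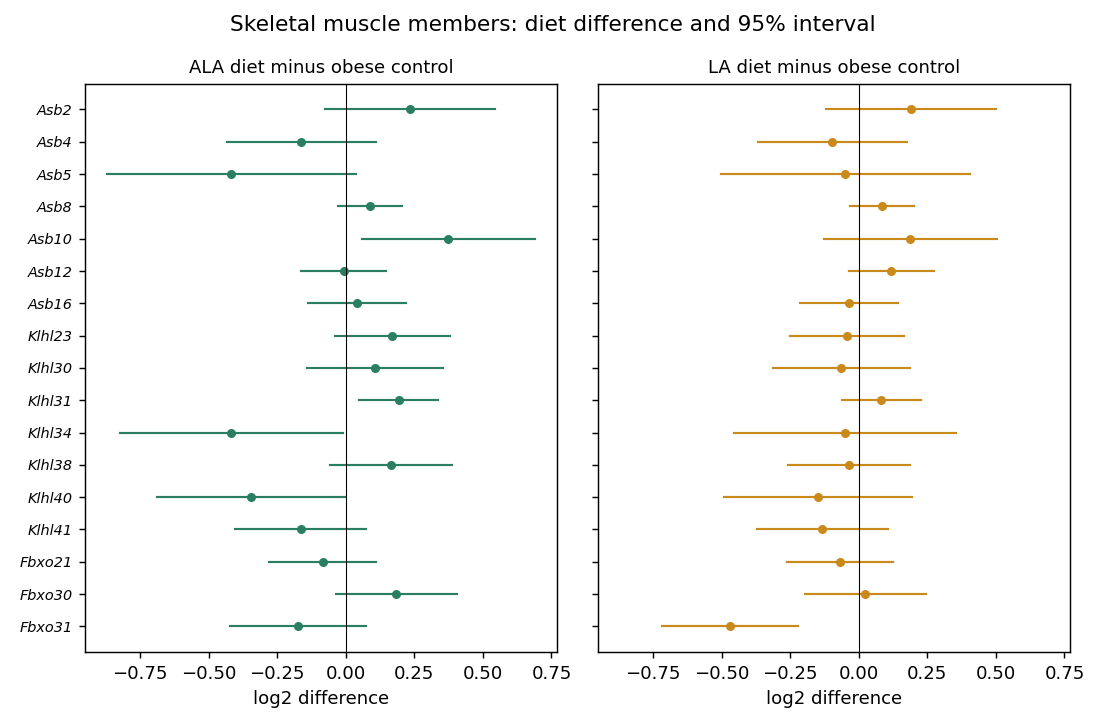
Log2 difference of ALA rats minus obese controls (left) and of LA rats minus obese controls (right) for the 17 measured adaptors of the muscle list, with 95% intervals (limma, n = 8 rats per group). No gene passed the adjusted test on either side; the difference farthest from 0 in LA rats is that of Fbxo31, at -0.47.

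The oils were also set against each other. Between ALA and LA rats no adaptor was called and 0% of all genes were called by limma, and 5 of the 54 adaptors (9.26%), against 6.94% of all genes, had an unadjusted p below 0.05. Klhl20, known for marking the autophagy kinase Ulk1, measured 6.14, 6.26 and 6.42 in ALA rats at the lowest, median and highest, against 5.96, 6.08 and 6.28 in LA rats. The groups overlapped, and the difference was 0.17 (limma, adjusted p = 0.503). Fbxo31 differed by 0.29 (limma, adjusted p = 0.641), Klhl7 by 0.16 (0.683), Fbxo22 by 0.14 (0.695) and Klhl23 by 0.21 (0.705). Without the 5 outlying rats Klhl23 was at 0.079, Fbxo22 at 0.070 and Klhl7 at 0.097. The intervals of 49 of the 54 adaptors lay within 0.5 log2 units of 0. All 8 macrophage markers were lower in ALA than in LA rats, 6 of them at an unadjusted p below 0.05. So were all 5 slow-fibre markers (2 at that threshold), all 7 fibroblast markers (2) and 4 of 6 endothelial markers (0). The part of fibre type or of these cells in the adaptors was not tested.

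The obese rats on either oil differed from the lean controls in the same 2 adaptors, Asb4 and Klhl23, of 54. Over all genes tested 0.889% were called in ALA rats against lean controls and 1.62% in LA rats against lean controls. Of the called genes 36.1% and 42.4% were higher in the ALA and the LA rats, and 49.3% and 52.6% were higher after a second quantile normalisation. At an unadjusted p below 0.05, 5 adaptors (9.26%) differed in ALA rats, against 9.32% of all genes, and 11 (20.4%) in LA rats, against 13.5%. The slow-fibre markers averaged 7.17 to 9.02 in ALA rats and 7.18 to 10.95 in LA rats, against 9.78 to 10.37 in lean controls. Each of these comparisons shares the 8 lean controls with that of the obese controls.

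Asb4 measured 5.76, 6.57 and 6.96 in ALA rats and 6.38, 6.52 and 6.92 in LA rats at the lowest, median and highest, against 5.32, 5.57 and 5.73 in lean controls. All ALA and LA rats lay above all lean controls, the ALA rats by the margin between rat 3 at 5.76 and the highest lean control at 5.73. Such a separation was seen in 0.394% of all genes in ALA rats and 0.376% in LA rats. The difference was 0.96 (1.95-fold) in ALA rats, with a 95% interval of 0.69 to 1.23 (limma, adjusted p = 0.000106), and 1.03 (2.04-fold) in LA rats, with an interval of 0.76 to 1.30 (limma, adjusted p = 1.91e-05). Against obese controls Asb4 differed by -0.16 in ALA rats (95% interval -0.43 to 0.11) and by -0.096 in LA rats (-0.37 to 0.18), and without obese controls 4 and 7 by 0.0028 and 0.070.

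Klhl23 measured 7.28, 7.45 and 7.83 in ALA rats and 6.84, 7.35 and 7.67 in LA rats at the lowest, median and highest, against 7.78, 7.86 and 8.19 in lean controls. The LA rats all lay below the lean controls, and 1 ALA rat, at 7.83, reached into their range. The difference was -0.66 (1.58-fold lower) in LA rats, with a 95% interval of -0.87 to -0.45 (limma, adjusted p = 0.000302). Without the 5 outlying rats it was -0.49 (limma, adjusted p = 0.00269). LA rats 7 and 8, whose slow-fibre marker means of 10.38 and 10.95 were above those of every lean control, had the lowest Klhl23 of the group, at 6.84 and 6.88. LA rat 7 also stood apart in its tendon, fibroblast and adipocyte marker means, at 8.30, 8.91 and 6.06. The tendon marker mean of LA rat 8, at 6.93, was likewise above the 4.36 to 5.87 of the LA rats other than 7 and 8. The part of such tissue or of fibre type in Klhl23 was not tested. In ALA rats the difference was -0.45 (1.36-fold lower), with an interval of -0.66 to -0.24 (limma, adjusted p = 0.0235). That call was lost without lean control 2 (limma, adjusted p = 0.0568), lean control 4 (0.0513), ALA rat 4 (0.0590) or ALA rat 7 (0.0607), with 0.00137 the lowest value over the alternatives run.

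Fbxo21 was again on the higher side without passing, at 0.29 in ALA rats (limma, adjusted p = 0.178) and 0.31 in LA rats (0.0968) against lean controls. Klhl20 differed by -0.21 in LA rats against lean controls (limma, adjusted p = 0.0510), and with single rats left out its adjusted p ran from 0.0226 to 0.118. Without the 5 outlying rats Fbxo21 passed in LA rats at 0.38 (limma, adjusted p = 0.0484, where single rats left out gave 0.0609 to 0.189). Klhl12 differed by -0.19 in LA rats (limma, adjusted p = 0.107) and by -0.13 without the 5 outlying rats, and in ALA rats Klhl25 differed by -0.23 (0.405) and Klhl38 by 0.25 (0.442). Klhl31 differed by -0.11 in ALA rats (limma, adjusted p = 0.690) and by -0.22 in LA rats (0.119).

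The proteins with which these adaptors work were read as lists. Of 35 listed genes for the cullin-RING core (cullins, RING subunits, Nedd8 pathway and COP9 signalosome), 25 were measured and 0 were called by limma in any of the 6 comparisons. In obese controls against lean controls 3 of these 25 (12%) had an unadjusted p below 0.05, against 14.8% of all genes. In ALA rats against obese controls 20 were higher and 5 lower (80% higher, against 47.8% of all genes), with a median log2 difference of 0.034 against -0.0055 over all genes. There 2 of the 25 (8%) had an unadjusted p below 0.05, against 8.41% of all genes. Against lean controls, 44%, 64% and 40% were higher in obese controls, ALA rats and LA rats, where 50.6%, 47% and 48.5% of all genes were. In LA rats against obese controls 48% were higher, against 49.2% of all genes. In ALA against LA rats 80% were higher, against 49.6% of all genes, with a median log2 difference of 0.045. There 0 of the 25 had an unadjusted p below 0.05, against 6.94% of all genes. The 2 comparisons with 80% higher share the ALA rats. Of 29 tested adaptors of related families, Fbxl4, an F-box protein that restrains mitophagy, was the one called. It averaged 8.22 ± 0.22 in ALA rats, 8.14 ± 0.22 in LA rats, 8.00 ± 0.31 in obese controls and 7.67 ± 0.14 in lean controls (SD, n = 8 each). It was higher than in lean controls by 0.55 in ALA rats (limma, adjusted p = 0.00759) and by 0.47 in LA rats (0.0193), and the difference of 0.33 in obese controls did not pass (0.125).

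Of 8 other measured ubiquitin ligases of muscle 0 were called by limma in obese controls against lean controls, and 0 had an unadjusted p below 0.05. The atrophy ligases Fbxo32 and Trim63 differed there by 0.31 (limma, adjusted p = 0.444) and 0.26 (0.636). Of 6 measured partners or substrates Irs1, the insulin receptor substrate that Fbxo40 is known to target, was called lower in obese controls. Irs1 averaged 7.14 ± 0.56 in obese controls and 8.15 ± 0.42 in lean controls (SD, n = 8 each), a difference of -1.01 (limma, adjusted p = 0.0165). Without obese controls 4 and 7 it was -0.78 and did not pass (limma, adjusted p = 0.10).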

How the data were processed

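Total RNA of 32 rat muscles, 100 ng each per the labels' protocols, was hybridised to 1 Affymetrix array per rat. Log2 intensities were deposited, produced by the authors with RMA per the submitters' processing notes (version not given in the sources used here). RMA corrects background and quantile-normalises arrays, which removes a shift shared by most genes and compresses differences of dim features. The number of arrays limits the precision; a difference had a standard error of 0.0875 in the median gene. The table held 36685 features with array medians of 3.83 to 3.99, of which 14824 had 1 gene symbol in the platform annotation, 829 had several and 21032 were unnamed here.

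The feature of highest overall mean stood for each gene, the dimmest 25% of 14557 genes (log2 of 3.35 or less) were left out, and 10917 genes were fitted with limma 3.58.1 in R 4.3.3 as 4 group means sharing 28 residual degrees of freedom. Tests were two-sided, with Benjamini-Hochberg adjustment over all genes tested and a threshold of 0.05, and the fit was tested on simulated data. Rats are separate animals per the labels. Named were the adaptors called in a comparison, or the 5 with the smallest p where fewer were called, the 4 of each family with the highest mean, that with the widest range of group means, and the muscle list. Members, lists and tests were chosen with earlier results of these data known. Replicate numbers were not used as pairs: same-numbered rats correlated at -0.227 to 0.297, and 17 of 48 pairs exceeded 0.1. Rats of different numbers were not set beside them, so these values cannot decide whether the numbers share a batch. Alternatives covered the filter, scaling, array weights, prior, groups fitted, threshold, replicate block and rats left out. Promoter windows came from the RefSeq table of build GRCr8, matched by symbol for 56 of 63 genes.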

Additional observations from a re-analysis of the deposited data

Results flagged for a closer look

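Single rats lay far from the others of their group, by Dixon's gap criterion at 95%, in 10 of 100 groups of 8 examined (25 adaptors in 4 groups). Chance flags about 1 in 20 groups, and the criterion does not catch 2 rats that stand apart together, such as obese controls 4 and 7.

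LA rat 8 accounted for 4 of the 10. Its log2 intensity was 9.85 for Asb5, against 7.99 to 8.40 in the other LA rats, and 8.99 for Klhl40, against 7.65 to 8.10. It was low for Klhl21, at 7.32 against 7.75 to 8.13, and for Fbxo22, at 7.4 against 7.66 to 7.88. ALA rat 3 was high for Klhl21, at 8.42 against 7.82 to 8.06 in the other ALA rats, and for Fbxo22, at 8.07 against 7.81 to 7.92. LA rat 5 was high for Klhl30, at 7.02 against 6.23 to 6.54 in the rest of its group. Among lean controls, rat 7 was low for Fbxo21, at 6.18 against 6.57 to 6.89, rat 3 was low for Klhl7, at 7.39 against 7.64 to 7.82, and rat 6 was high for Fbxo22, at 8.13 against 7.78 to 7.92.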

How the results depend on the processing

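Each result was recomputed under 44 alternatives, 32 of which left out 1 rat, except Klhl25, which had 43 because leaving out the dimmest 50% removed it. In the 3 comparisons among obese groups, 0 adaptors were called under any of them. Without 1 rat, the adaptors called numbered 3 to 4 in obese against lean controls (4 with all rats), 1 to 2 in ALA rats against lean controls (2) and 2 to 3 in LA rats against lean controls (2). In LA rats against lean controls 4 were called with array weights, with an adjusted p below 0.1, and without obese controls 4 and 7, LA rats 7 and 8 and lean control 2. The direction in obese against lean controls reversed, with no call on either side, for Asb2 (0.0055) and Klhl41 (-0.045) without obese controls 4 and 7, and for Asb8 (0.023); without all 5 rats Asb8 was at 0.017 and Klhl41 at -0.00057. With the replicate number as a block, 4, 2 and 3 adaptors (Asb12 added) were called in obese controls, ALA rats and LA rats against lean controls and 0 in the other comparisons, and the block removed none of the named calls. Centring on array medians left Fbxo21 at a log2 difference of 0.36 and an adjusted p of 0.0648 (limma). The median over all genes was then -0.017, against 0.0019 as deposited. Fitting only the groups compared kept the log2 difference of Fbxo21 at 0.38, with an adjusted p of 0.0790 (limma). The cause of these lost calls was not tested. The arrays' signal over background limits dim genes, of which 9 adaptors could not be tested. Depth is not defined for intensities.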
